A study of Mus musculus with 23 samples.

Results

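The Notch pathway and Hes genes described here are 10 mouse genes, taken by name and not by any measured value, out of 21938 protein-coding genes (autosomes, X and Y). They are 2 receptors (Notch1 and Notch2), 3 ligands (Dll1, Dll3 and Jag1), the DNA-binding partner of the activated receptor (Rbpj) and 4 genes of the Hes and Hey family (Hes1, Hes5, Hes6 and Hey1). For each gene, the peaks of 8 lists were taken within 5 kb of its transcription start site (TSS) and up to 100 kb on either side. All 10 genes were found in the annotation, and no filter removed any of them.

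The lists come from ChIP-seq of 2 histone marks in cells of the cerebral cortex of Tg(Ebf2-EGFP)FB58Gsat mouse embryos. In this line EGFP is driven by Ebf2 sequence on a bacterial artificial chromosome, so the sort reports Ebf2 activity and not a cell type as such, and all groups carry the transgene. Cells sorted by fluorescence at E11.5 (E, embryonic day) gave Ebf2-EGFP- cells, mostly neural progenitor cells (NPCs), and Ebf2-EGFP+ cells, mainly preplate neurons (early EGFP+ cells below). Ebf2-EGFP+ cells were also taken at E13.5, and at E15.5 (late EGFP+ cells), when most are Cajal-Retzius (CR) cells. By the labels, 1 ChIP library was made for H3K27ac in Ebf2-EGFP- cells and 2 for every other mark and cell group, with a single list of peaks for each of these 8 combinations. Ebf2-EGFP- cells were profiled at E11.5 only and are called EGFP- cells below. With 1 list per group there were no replicate values, so each difference between lists is given as a description with no test.

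In Notch signaling a ligand on one cell binds a receptor on its neighbour, the receptor is cleaved, and its intracellular part enters the nucleus and joins Rbpj on DNA to switch on targets such as Hes1, Hes5 and Hey1. The products of these targets repress proneural genes and keep progenitors of the cortex from differentiating, while newborn neurons present ligands to the progenitors around them. H3K27ac, acetylation of lysine 27 of histone H3, lies at active promoters and enhancers, and H3K27me3, trimethylation of the same residue, is set by Polycomb at repressed genes.

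The lists were of very unequal length. H3K27ac lists held 1386 peaks in EGFP- cells and 37055, 102877 and 25787 in EGFP+ cells by stage. H3K27me3 lists held 48962, 6387, 6721 and 1429 peaks in the same order. Marker genes chosen for each cell type were read in the same windows. Of 6 progenitor markers, 0 had H3K27ac and 4 had H3K27me3 within 5 kb of the TSS in EGFP- cells, while 4, 5 and 3 had H3K27ac in EGFP+ cells by stage. In EGFP- cells these shares lay near those of all genes (4.17% for H3K27ac and 48.2% for H3K27me3), so the marks at these markers neither bear out nor contradict the description of EGFP- cells as progenitors. Of 6 neuronal markers 0, 5, 4 and 5 had H3K27ac in the 4 lists, and of 6 CR markers 1 (Reln), 5, 6 and 4. For other cells the H3K27ac counts were 0, 3, 3 and 3 of 3 intermediate progenitor markers, 0, 4, 5 and 3 of 6 interneuron markers, 0, 2, 3 and 0 of 5 endothelial markers, 0, 1, 3 and 3 of 5 microglial markers, and 0, 0, 1 and 0 of 3 blood markers. Over all genes the H3K27ac shares in EGFP+ cells were 49.9%, 60.9% and 52.3% by stage, and marker counts near these say little of cell type. H3K27me3 in EGFP- cells lay at 4 neuronal, 4 CR, 3 intermediate progenitor, 4 interneuron, 3 endothelial, 1 microglial and 0 blood markers. The part that list length or other cells play in the values below was not tested.

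A few sequences carry the comparisons below, from windows of 250 bases before a RefSeq start (RefSeq, GRCm38.p6) without an annotated UTR base. The reference table held 11 promoter windows of 8 of the 10 genes, and Hes1 and Hey1 were not matched. The Hes5 window, chr4:154960673-154960922 on the + strand, is shown because it was the only one of the 11 with the core of the RBPJ site. The letters searched were GTGGGAA on either strand, a core that overlaps no other motif searched, and both matches are in capitals. Windows of Notch1 (chr2:26503823-26504072, - strand) and Hes6 (chr1:91413223-91413472, - strand) are shown because both marks were listed there at E11.5, with capitals for bases under H3K27me3 of EGFP- cells and also under H3K27ac of EGFP+ cells. An intronic stretch of Rbpj (chr5:53589089-53589192, + strand, read from the genome of the same build) is shown because 4 lists covered all of it. Each is written 5′ to 3′ on the strand of its gene.
Hes5: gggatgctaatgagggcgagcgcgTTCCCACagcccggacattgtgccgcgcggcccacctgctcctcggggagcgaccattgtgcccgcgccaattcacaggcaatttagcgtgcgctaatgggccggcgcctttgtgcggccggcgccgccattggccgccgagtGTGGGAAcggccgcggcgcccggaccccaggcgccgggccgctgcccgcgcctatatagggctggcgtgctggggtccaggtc
Notch1: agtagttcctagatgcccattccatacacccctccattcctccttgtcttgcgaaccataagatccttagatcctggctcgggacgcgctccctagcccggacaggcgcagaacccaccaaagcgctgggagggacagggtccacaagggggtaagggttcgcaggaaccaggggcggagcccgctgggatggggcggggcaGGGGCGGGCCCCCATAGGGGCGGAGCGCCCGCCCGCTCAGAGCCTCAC
Hes6: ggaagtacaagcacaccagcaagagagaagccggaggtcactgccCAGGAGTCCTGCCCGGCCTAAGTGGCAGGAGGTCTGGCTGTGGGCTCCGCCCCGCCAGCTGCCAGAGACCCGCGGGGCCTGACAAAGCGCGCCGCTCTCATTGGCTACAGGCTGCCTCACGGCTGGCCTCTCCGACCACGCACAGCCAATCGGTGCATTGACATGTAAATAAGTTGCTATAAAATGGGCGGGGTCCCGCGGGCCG
Rbpj intron: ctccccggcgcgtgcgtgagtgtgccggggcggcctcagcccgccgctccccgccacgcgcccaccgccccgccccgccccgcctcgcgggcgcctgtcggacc

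The 2 matches in the Hes5 window lay 83 to 77 bases before the start on the + strand and 226 to 220 bases before it on the - strand. The nearer match was inside an H3K27ac peak of late EGFP+ cells, which covered 130 of the 250 bases, and no other list had a peak on either match. Of all 32851 promoter windows of 300 bases in the table, 2097 (6.38%) held the core. The Hes5 window had 71.6% G and C and 32 CG pairs. The Notch1 window had 66% and 16, with 48 bases in capitals, the Hes6 window 64% and 17, with 205 in capitals, and the Rbpj stretch 85.6% and 19 CG pairs in 104 bases. A match or its absence is a description of these letters and not of binding.

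At the TSS, taken as the 5′ end of the gene in GENCODE, the 10 genes had no H3K27ac peak in EGFP- cells and were mostly marked in EGFP+ cells. H3K27ac was listed within 5 kb at 0 of 10 genes in EGFP- cells, against 4.17% of all genes. In EGFP+ cells the counts by stage were 8 (all genes 49.9%), 9 (60.9%) and 8 (52.3%). H3K27me3 had the opposite layout at E11.5, with 7 of 10 genes in EGFP- cells (48.2%) and 0 in EGFP+ cells (4.92%). It was listed at 2 genes at E13.5, Dll1 and Hes6 (9.31%), and at 0 at E15.5 (1.06%). The genes thus shared the layout of the whole lists, with shares above those of all genes in the 3 EGFP+ H3K27ac lists and in H3K27me3 of EGFP- cells and of E13.5, not set against any error. Since the lists differ in length, only the widest 1386 H3K27ac peaks of each list were also taken, and then 1, 0 and 2 genes were marked in EGFP+ cells by stage (all genes 6.25%, 1.39% and 6.87%). The widest 1429 H3K27me3 peaks of each list marked 0 of the 10 genes in all 4 lists (all genes 2.96%, 1.33%, 2.67% and 1.06%).

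**Figure D1:**
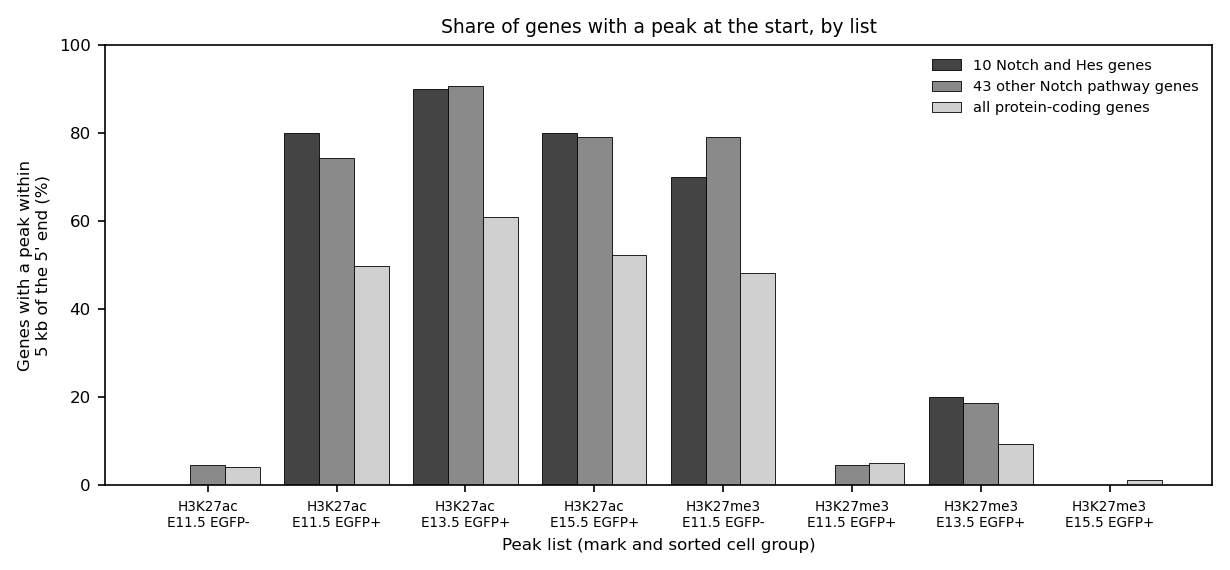
Share of genes (%) with a peak within 5 kb of the gene 5′ end in each of the 8 peak lists, for the 10 Notch and Hes genes, 43 other Notch pathway genes and all 21938 protein-coding genes (bars from 0, no error since each list is single). The 10 genes reach 8, 9 and 8 of 10 for H3K27ac in EGFP+ cells and 7 of 10 for H3K27me3 in EGFP- cells, and the 3 sets follow one layout.

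The layout depends on which start is used, and among the 10 genes most of all for Notch1 and Rbpj. The GENCODE 5′ end of Notch1 lies 12841 bp upstream of its RefSeq start, and that of Rbpj lies 89627 to 124334 bp upstream of its 3 RefSeq starts, while for the other 8 genes the distance is at most 1049 bp. With any annotated start, H3K27ac was listed at 1 gene in EGFP- cells (all genes 4.7%) and at 10, 10 and 10 in EGFP+ cells (55.8%, 67.3% and 56.4%). H3K27me3 was then listed at 8, 1, 3 and 0 genes (55.1%, 9.27%, 13.1% and 1.78%). With RefSeq starts, a setting added after seeing the data, the counts were 1, 10, 10 and 9 for H3K27ac and 8, 0, 3 and 0 for H3K27me3. Over the 20327 genes with such a start the shares were 4.4%, 53.1%, 63.5% and 55.5% for H3K27ac and 51%, 5.43%, 10.1% and 1.15% for H3K27me3.

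**Figure D2:**
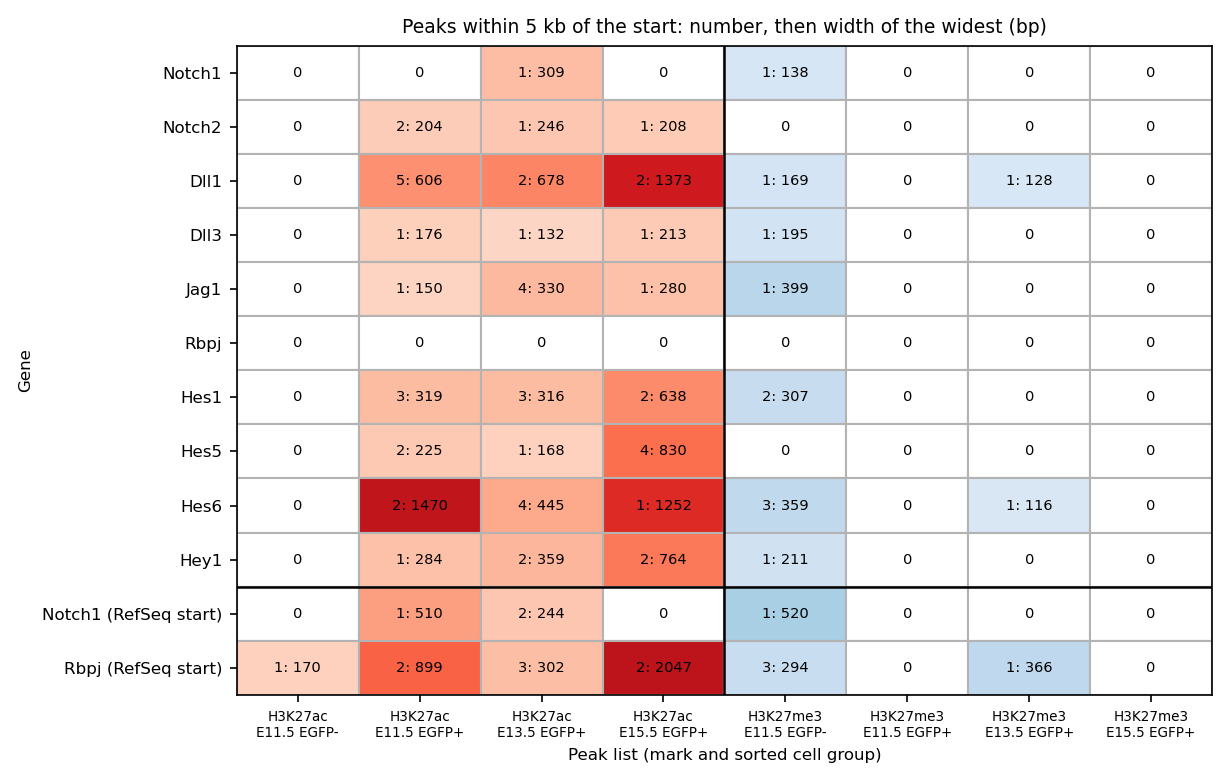
Number of peaks within 5 kb of the start, then the width of the widest in bp (shade), for each gene and list, with white for no peak. The lower rows give Notch1 and Rbpj at their RefSeq starts, where Rbpj has the only H3K27ac peak of the EGFP- list (170 bp) and the widest of all, 2047 bp at E15.5.

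Read gene by gene, H3K27ac was listed at all 3 stages of EGFP+ cells at 8 of 10 genes, against 33.1% of all genes. H3K27me3 in EGFP- cells together with H3K27ac in early EGFP+ cells was found at 6 of 10 (34.8%), namely Dll1, Dll3, Jag1, Hes1, Hes6 and Hey1. Both marks at E13.5 were found at 2 of 10 (8.39%). None of the 10 genes carried both marks at its 5′ end in either E11.5 group or at E15.5. That follows from the counts above, since each of these groups lacked H3K27ac or H3K27me3 at all 10 of these ends. The share of all genes was not counted. With any annotated start, Rbpj carried both marks in EGFP- cells and Notch1 in early EGFP+ cells. Notch2 and Hes5 were the 2 genes with H3K27ac in the 3 EGFP+ lists and no H3K27me3 within 5 kb in any list.

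**Figure D3:**
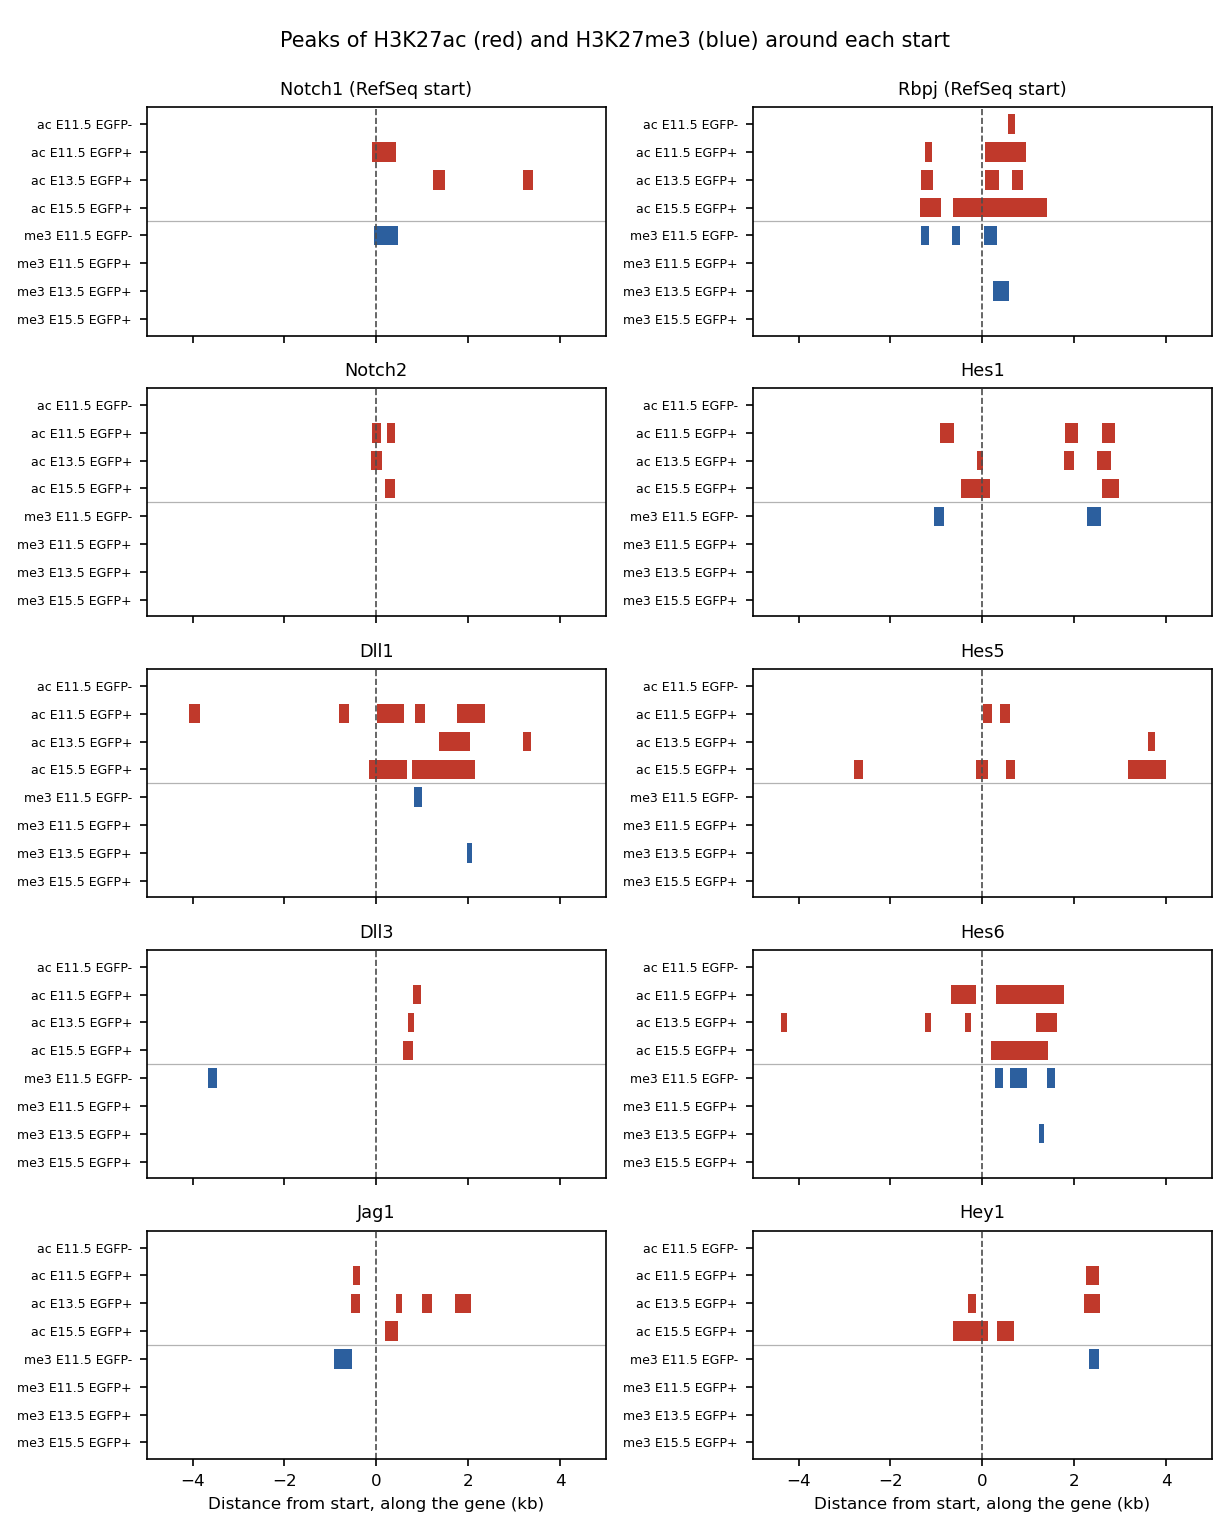
Peaks of H3K27ac (red) and H3K27me3 (blue) within 5 kb of each start, with distance along the gene in kb, 1 row per list and the start at 0 (gene 5′ end, or the RefSeq start for Notch1 and Rbpj). H3K27me3 of EGFP- cells shares bases with H3K27ac of early EGFP+ cells at Notch1, Dll1, Hes1, Hes6, Hey1 and Rbpj, and lies beside it at Jag1.

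Notch1 encodes a receptor that acts in cortical progenitors. Its 5′ end at chr2:26516663 had only an H3K27me3 peak of 138 bp in EGFP- cells, in an intron, and an H3K27ac peak of 309 bp at E13.5, centred at -3308 bp (minus for upstream). At the RefSeq start, chr2:26503822, EGFP- cells had an H3K27me3 peak of 520 bp and early EGFP+ cells an H3K27ac peak of 510 bp. These 2 peaks were centred on an exon, reached 48 and 84 bp upstream of this start and shared 474 bp. The marks of the 2 groups were thus listed on nearly the same bases. At E13.5 the H3K27ac peaks near this start were narrower, 224 and 244 bp, and lay inside the gene, and at E15.5 there was none. The Notch1 windows at E15.5 had H3K27ac only near annotated downstream starts, in peaks of 302, 253 and 184 bp.

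Notch2, the other receptor of this set, had the plainest record. H3K27ac lay at the start (chr3:98013527) in early EGFP+ cells in peaks of 204 and 175 bp. It was listed there in 1 peak of 246 bp at E13.5 and 1 of 208 bp at E15.5, and no list of H3K27me3 had a peak within 5 kb. The E15.5 peak was centred 301 bp inside the gene and did not meet the E13.5 peak. At this locus 0 other protein-coding genes start within 100 kb of the 5′ end.

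Among the ligands, Dll1, which neurons and committed progenitors present to their neighbours, had the most bases under H3K27ac near the start at E11.5 and E15.5. In early EGFP+ cells 5 H3K27ac peaks lay within 5 kb of its 5′ end (chr17:15376872), the widest 606 bp. At E13.5 there were 2, the widest 678 bp, and at E15.5 there were 2, of 1373 and 818 bp. Bases covered within 5 kb were 1861, 849 and 2191. H3K27me3 was listed in EGFP- cells as 1 peak of 169 bp on an exon, 151 bp of which were under H3K27ac in early EGFP+ cells. At E13.5 an H3K27me3 peak of 128 bp shared 73 bp with the H3K27ac peak of the same cells. The noncoding gene A930024N18Rik overlaps this start, so the peaks cannot be assigned to one of the 2 genes.

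Dll3, a ligand that acts inside the cell that makes it and does not activate receptors on neighbours, had 1 narrow H3K27ac peak in each EGFP+ list, of 176, 132 and 213 bp. All lay on an exon 877, 752 and 698 bp from the 5′ end (chr7:28302238). Its H3K27me3 peak in EGFP- cells, 195 bp wide, was centred at -3565 bp on an exon of the neighbour Timm50. The peaks of the 2 marks at Dll3 thus lay in different places and shared no base.

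Jag1, a ligand of the Serrate type, had 1 H3K27ac peak of 150 bp at E11.5 and peaks of up to 330 bp at E13.5, where there were 4, and 1 of 280 bp at E15.5. The E11.5 peak was centred at -437 bp from the 5′ end (chr2:137116644) and was also listed at E13.5, while the E15.5 peak lay 338 bp inside the gene. EGFP- cells had H3K27me3 over 399 bp, centred at -725 bp. That peak did not meet the E11.5 H3K27ac peak, and shared 23 bp with the E13.5 one. The 2 marks stood side by side here.

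Rbpj binds DNA and recruits either a corepressor or the cleaved receptor. Within 5 kb of its GENCODE 5′ end (chr5:53466152, given the lowest transcript support level, 5) neither mark was listed in any of the 8 lists, a record shared with 4980 other genes (22.7%). Around the RefSeq starts at chr5:53590346 and chr5:53590486 peaks of 6 of the 8 lists were found, against at most 5 at the 5′ end of the other genes. EGFP- cells had H3K27me3 peaks of 182, 172 and 294 bp and an H3K27ac peak of 170 bp (chr5:53590897-53591066), the only H3K27ac peak of that list near a start of any of the 10 genes. H3K27ac in EGFP+ cells had peaks of 166 and 899 bp at E11.5, of 257, 302 and 254 bp at E13.5 and of 448 and 2047 bp at E15.5. An H3K27me3 peak of 366 bp was also listed at E13.5, and shared 142 bp with H3K27ac of the same cells. Bases chr5:53590569-53590671 were covered in 5 lists (H3K27ac of the 3 EGFP+ groups, H3K27me3 of EGFP- cells and of E13.5). The printed intronic stretch, covered by H3K27me3 of EGFP- cells and by H3K27ac at all 3 stages, held no RBPJ core.

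Hes1, the target that oscillates in progenitors and represses proneural genes, had 3, 3 and 2 H3K27ac peaks within 5 kb of its 5′ end (chr16:30064384) in EGFP+ cells by stage. The widest were 319 bp at E11.5, 316 bp at E13.5 and 638 bp at E15.5, the last over the 5′ end itself. The RefSeq start, 973 bp into the gene, lay outside that peak. Peaks about the 3′ end of the gene, centred 2747, 2649 and 2787 bp from the 5′ end, were listed at all 3 stages. H3K27me3 of EGFP- cells was centred at -941 bp (226 bp wide) and at 2429 bp (307 bp). The upstream peak shared 101 bp with H3K27ac of early EGFP+ cells, and the downstream peak shared 91 bp with H3K27ac of E13.5. Just beyond the window of the 5′ end, an intergenic stretch held H3K27ac over 764 bp at E13.5 (chr16:30070014-30070777) and 332 bp at E15.5. H3K27me3 of EGFP- cells covered 212 bp there, and both narrower peaks lay inside the E13.5 peak. The H3K27ac peaks of this stretch were within 5 kb of the RefSeq start. No later H3K27me3 list had a peak within 100 kb of Hes1.

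Hes5, the target most closely tied to Notch activity in progenitors, had no H3K27me3 peak within 5 kb of its start (chr4:154960923) in any list. In early EGFP+ cells H3K27ac peaks of 191 and 225 bp lay just after the start, centred 117 and 493 bp from it. At E15.5 peaks of 247 and 184 bp lay there, centred at -7 and 616 bp. At E13.5, the longest of all lists, there was no peak at the Hes5 start, and the gene counted as marked through a peak of 168 bp centred 3681 bp downstream in an intron of Pank4. The widest E15.5 peak of the window, 830 bp, lay at that same place, 3586 bp downstream. The start of Pank4 is within 5 kb of all Hes5 peaks here except 1 upstream peak of 206 bp at E15.5, and Gm20421 overlaps the Hes5 exons, so these peaks cannot be assigned to Hes5 alone.

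Hes6, unlike Hes1 and Hes5, promotes neuronal differentiation and antagonises Hes1. It had the widest H3K27ac peak of the 10 genes at its 5′ end in early EGFP+ cells, 1470 bp, against a median widest peak of 342 bp over all marked genes of that list. Its widest peaks were 445 bp at E13.5 and 1252 bp at E15.5, where the medians were 255 and 582 bp. EGFP- cells had 3 H3K27me3 peaks, of 192, 359 and 171 bp, centred 1494, 790 and 368 bp into the gene from the 5′ end (chr1:91414038). The 3 peaks shared 192, 359 and 147 bp with the 1470 bp H3K27ac peak, so the first 2 lay wholly within it. At E13.5 an H3K27me3 peak of 116 bp lay wholly within the 445 bp H3K27ac peak. The same bases, chr1:91412692-91412807 on an exon, were under H3K27ac at all 3 stages. Hes6 and Dll1 were the genes with both marks at E13.5 and shared 1 record over the 8 lists.

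Hey1, a related target also known from vessels, had an H3K27ac peak of 284 bp at E11.5, centred 2397 bp from its 5′ end (chr3:8667256) on an exon. The H3K27me3 peak of EGFP- cells, 211 bp, lay wholly within it. The same exon was marked with H3K27ac at E13.5 over 359 bp and not at E15.5. At the start, E13.5 had an H3K27ac peak of 169 bp, centred at -221 bp. Peaks of 377 and 764 bp lay there at E15.5, and the wider one held all of the 169 bp peak. Farther upstream, an intergenic place centred at -11618 bp held both marks in early EGFP+ cells over 76 shared bp.

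Beside the genes of each list that had a peak, the widest peaks of the 10 genes were mixed. At E15.5 Dll1, Hes1, Hes5, Hes6 and Hey1 (1373, 638, 830, 1252 and 764 bp) lay above the median of 582 bp, while Notch2, Dll3 and Jag1 (208, 213 and 280 bp) lay below it. At E11.5 only Dll1 and Hes6 lay above the median of 342 bp. At E13.5 Notch1, Dll1, Jag1, Hes1, Hes6 and Hey1 lay above the median of 255 bp, and Notch2 (246 bp), Dll3 and Hes5 below it. For H3K27me3 in EGFP- cells Jag1, Hes6 and Hes1 lay above the median of 247 bp. Peaks under 142 bp at E11.5, 126 bp at E13.5 and 184 bp at E15.5 were in no H3K27ac list of EGFP+ cells, so widths near these values are the smallest that could be listed.

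The RBPJ core was also searched in the peaks within 5 kb of the 5′ end or RefSeq start. It was present in 3 of 20 H3K27ac peaks at E11.5 (Dll1, Hes1 and Hes6), in 6 of 25 at E13.5 (Notch1, Hes1, Hes6 and Hey1) and in 5 of 17 at E15.5 (Dll1, Hes5, Hes6, Hey1 and Rbpj). Over all peaks of these lists the share was 5.53%, 4.76% and 8.48%. In H3K27me3 of EGFP- cells it was present in 1 of 14 (Hes6), against 4.35% of all peaks. The 0 of 3 H3K27me3 peaks at E13.5 and the 1 H3K27ac peak of EGFP- cells held none, with 3.56% and 2.81% of all peaks in those lists. Wider peaks hold more bases, and the peaks of the 10 genes were not matched for width, so these shares are not a comparison at equal length.

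Beyond 5 kb and up to 100 kb, H3K27ac was listed near 0 of 10 genes in EGFP- cells, against 14.2% of all genes, and near 8, 10 and 10 genes in EGFP+ cells (85.7%, 96.8% and 80.1%). The 2 genes without a distal peak at E11.5 were Jag1 and Rbpj. Distal windows ran from the GENCODE 5′ end. They therefore missed the peaks at the Rbpj RefSeq starts and counted those at the Notch1 RefSeq start as distal. H3K27me3 was listed near 10 genes in EGFP- cells (90.7%) and near 6, 6 and 1 in EGFP+ cells (47.8%, 48.1% and 13%). These counts are close to the background, so the presence of a distal peak says little about this set. The number of peaks varied more. The 10 genes had 98, 241 and 53 distal H3K27ac peaks by stage in EGFP+ cells, with a median per gene of 6.5 at E11.5 and 2.5 at E15.5, against 4 and 3 over all genes. At E13.5 the genes ranged from 3 to 59 with 14 and 17 as the 2 middle values, above the all-gene median of 10. They had 91, 16, 17 and 1 distal H3K27me3 peaks, with medians of 6.5, 1, 1 and 0 against 5, 0, 0 and 0.

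**Figure D4:**
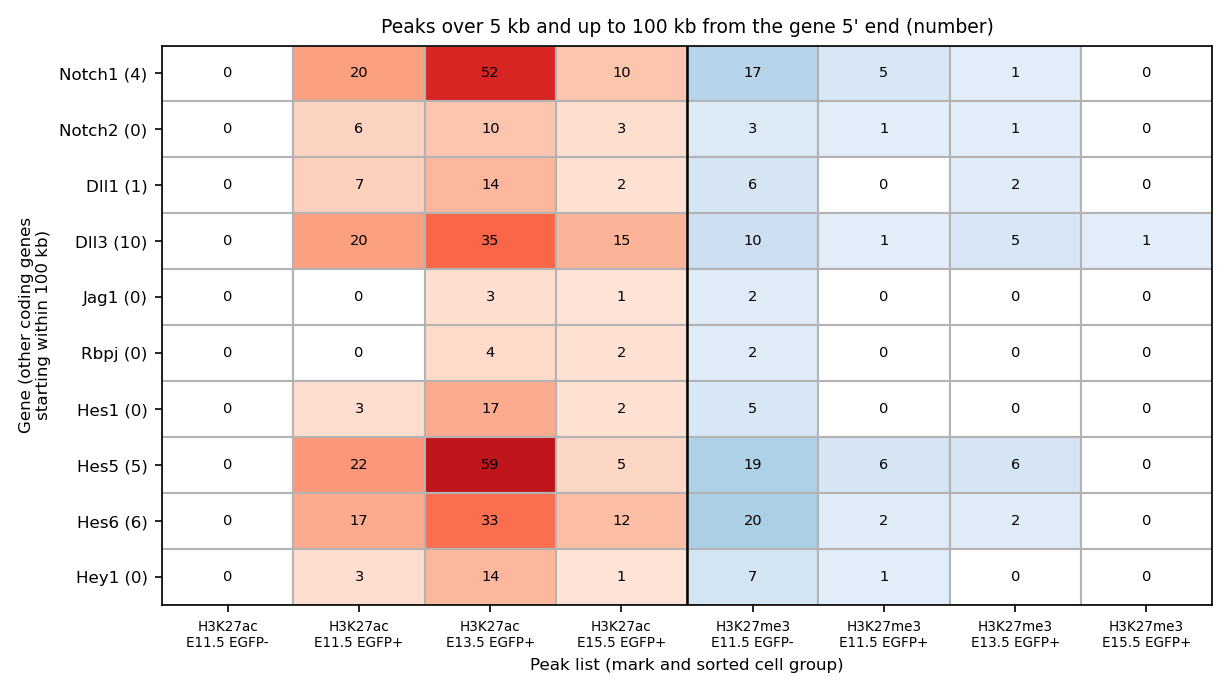
Number of peaks over 5 kb and up to 100 kb from the gene 5′ end for each gene (rows, with the number of other protein-coding genes starting within 100 kb in brackets) and list (columns), shaded by number. Hes5 and Notch1 hold the most H3K27ac peaks at E13.5 (59 and 52), and Jag1 and Rbpj the fewest (3 and 4). Peaks at the Rbpj RefSeq starts lie outside these windows, and those at the Notch1 RefSeq start are counted.

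The genes divided by their surroundings. Dll3, Hes6, Hes5 and Notch1 have 10, 6, 5 and 4 other protein-coding genes starting within 100 kb, Dll1 has 1, and Notch2, Jag1, Hes1, Hey1 and Rbpj have 0, against a median of 3 over all genes. The 4 crowded genes had 17 to 22 distal H3K27ac peaks at E11.5 and 33 to 59 at E13.5. The other 6 had 0 to 7 and 3 to 17. Of the distal H3K27ac peaks, 28 of 98, 47 of 241 and 25 of 53 lay within 5 kb of another protein-coding start. A gene of the 10 had the nearest protein-coding start for 19, 59 and 11 of them. For H3K27me3 in EGFP- cells 23 of 91 lay within 5 kb of another start and 27 had one of the 10 genes nearest. By place, the E13.5 H3K27ac peaks lay in exons 58 times, in introns 98 times and between genes 85 times.

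Hes5 had the most distal peaks at E13.5, 59, more than 99.2% of all genes had, and 22 and 5 at E11.5 and E15.5. It also had 19, 6, 6 and 0 distal H3K27me3 peaks in the 4 lists. Of these, 15 of 22, 28 of 59 and 1 of 5 H3K27ac peaks and 13 of 19 H3K27me3 peaks of EGFP- cells were centred in Plch2, a neighbour that encodes a phospholipase C. Centres on an exon of the overlapping gene Gm10564 and on no Plch2 exon were not counted for Plch2, so these counts are minimum values. Bases chr4:154983864-154983969, on an exon of Plch2 22993 bp downstream of the Hes5 start, were covered in 5 lists. These were H3K27ac of the 3 EGFP+ groups and H3K27me3 of both E11.5 groups. Hes5 thus had no H3K27me3 at its start and many such peaks in the neighbouring gene.

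**Figure D5:**
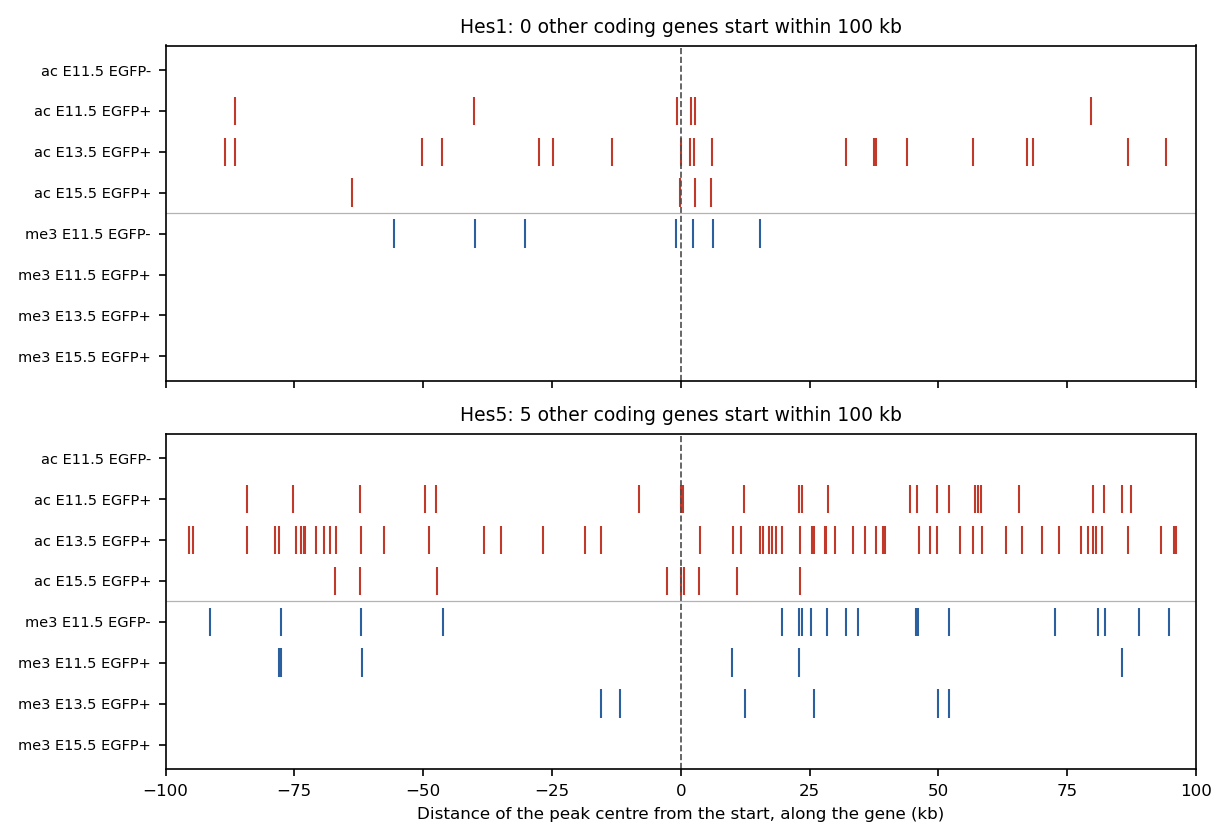
Centres of H3K27ac (red) and H3K27me3 (blue) peaks from 100 kb upstream to 100 kb downstream of Hes1 and Hes5, with distance along the gene in kb and 1 row per list. Hes1, with 0 other coding genes starting in the window, has 3, 17 and 2 distal H3K27ac peaks by stage in EGFP+ cells, and Hes5, with 5, has 22, 59 and 5.

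Hes1 and Hey1 had no other protein-coding gene starting within 100 kb. Every distal H3K27ac peak there but 2 at Hey1 at E13.5 had the gene itself as nearest protein-coding start. Some at Hes1 lay in introns of other annotated genes, namely Gm1968, 4632428C04Rik and 9030404E10Rik. Hes1 had 3, 17 and 2 distal H3K27ac peaks and Hey1 3, 14 and 1 by stage. In EGFP- cells they had 5 and 7 distal H3K27me3 peaks, and an intronic site of 9030404E10Rik at -40030 bp from Hes1 held H3K27me3 in EGFP- cells and H3K27ac in early EGFP+ cells. The widest distal H3K27ac peak of Dll1 at E11.5, 761 bp, was intergenic, 77328 bp downstream of the 5′ end (chr17:15299164-15299924). The widest of Dll3 at E15.5, 1135 bp, lay on an exon of Plekhg2, within 5 kb of its start.

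Peaks of the 10 loci were followed from list to list by an overlap of at least 1 bp. A locus was 100 kb on either side of the GENCODE 5′ end, so peaks at the Rbpj RefSeq starts were not counted. Of 115 H3K27ac peaks within 100 kb at E11.5 in EGFP+ cells, 46 (40%) overlapped a peak of E13.5, against 36.7% of all E11.5 peaks. Of 260 at E13.5, 28 (10.8%) overlapped a peak of E15.5, against 11.2%. For H3K27me3, 5 of 101 peaks of EGFP- cells (4.95%) overlapped a peak of early EGFP+ cells, against 2.21%. None of 16 peaks of early EGFP+ cells overlapped one of E13.5 (2.68% of the list), and none of 19 of E13.5 one of E15.5 (1.77%). The 5 peaks found in both E11.5 groups were 3 at Hes5 and 2 at Notch1.

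Peaks of H3K27me3 in EGFP- cells were also set against H3K27ac in EGFP+ cells. Of the 101, 29 (28.7%) overlapped H3K27ac of early EGFP+ cells, 24 (23.8%) that of E13.5 and 15 (14.9%) that of late EGFP+ cells. Over the whole list the shares were 21.7%, 37.7% and 18.4%, so the 10 loci were above it at E11.5 and below it at E13.5 and E15.5. The 3 H3K27me3 peaks of EGFP- cells at the Rbpj RefSeq starts lay outside these windows, and each met H3K27ac of late EGFP+ cells. Within 1 cell group the marks also met. In EGFP- cells the 0 of 101 (all peaks 1.47%) was fixed in advance, since no H3K27ac peak of that list lay within 100 kb. In EGFP+ cells, H3K27me3 peaks of the 10 loci overlapped H3K27ac in 6 of 16 at E11.5, 11 of 19 at E13.5 and 0 of 1 at E15.5. Over all H3K27me3 peaks of these lists the shares were 21.2%, 38.4% and 24.5%. Notch1 had 3 such places in early EGFP+ cells, Hes5 had 2 and Hey1 had 1.

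The 43 other genes of the pathway, from a list of ligands, receptors, enzymes, trafficking proteins, cofactors and targets, were marked much like the 10. H3K27ac was listed within 5 kb of the 5′ end at 2, 32, 39 and 34 of 43 and H3K27me3 at 34, 2, 8 and 0. The 2 with H3K27ac in EGFP- cells were Mib1, a ubiquitin ligase that readies ligands (550 bp), and Maml1, a coactivator that joins Rbpj and the receptor (310 bp). The 2 with H3K27me3 in early EGFP+ cells were Numbl, an adaptor related to the Notch inhibitor Numb (116 bp), and Nrarp, a target that dampens the pathway (129 bp). The 8 with H3K27me3 at E13.5 were the ligands Dll4 and Jag2, the receptor Notch3, the glycosyltransferase Mfng, the ubiquitin ligase Dtx1 and the targets Hes3, Heyl and Helt. Their widest H3K27me3 peaks ran from 119 bp at Hes3 to 346 bp at Helt. All 8 also had H3K27ac at E13.5, as did 1840 of all 2043 genes with H3K27me3 in that list.

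By role, H3K27ac of EGFP+ cells was listed by stage at 4, 4 and 4 of 4 other ligands and at 0, 2 and 1 of 2 other receptors. It was listed at 4, 3 and 4 of 4 glycosyltransferases, 5, 6 and 6 of 7 proteases, 7, 6 and 7 of 7 trafficking genes and 8, 8 and 8 of 9 cofactors. Among the 10 other targets it was listed at 4, 10 and 4. H3K27me3 in EGFP- cells was listed at 4, 2, 4, 4, 6, 6 and 8 genes of these 7 groups in the same order. The start used matters here too. With any annotated start H3K27ac was listed at 2, 2 and 2 of the 2 receptors and at 7, 6 and 7 of the 7 proteases, and H3K27me3 in EGFP- cells at 7 proteases. Over the 43 genes the any-start counts were 3, 36, 41 and 38 for H3K27ac and 38, 6, 11 and 0 for H3K27me3.

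Genes with exactly the same record over the 8 lists were counted for each of the 10. Dll3, Jag1, Hes1 and Hey1 had 1 record, H3K27me3 in EGFP- cells and H3K27ac at all 3 stages of EGFP+ cells, which 3785 genes beside each of them had (17.3%). Among these were the pathway genes Dlk1, Lfng and Numb and markers of several cell types, namely Nes and Vim (progenitors), Eomes (intermediate progenitors), Map2 and Elavl4 (neurons), Lhx5 (CR cells) and Aif1 (microglia). Dll1 and Hes6 shared theirs with 659 genes (3%), among them Dll4, Jag2, Mfng and Dtx1 and the markers Emx2 (progenitors), Btg2 (intermediate progenitors), Elavl3 (neurons) and Ebf3 (CR cells). Notch2 and Hes5 shared theirs with 1376 (6.27%), among them Ncstn and the markers Tubb3 (neurons) and Dlx5 (interneurons). Notch1, by its 5′ end, shared its record with 868 genes (3.96%), among them Notch4, Ccnd1 and Id1 and the markers Cdh5 and Cldn5 (endothelial cells) and Dlx1 (interneurons). Likeness here is identity of presence and absence in 8 lists and carries no measure of height.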

How the data were processed

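H3K27ac and H3K27me3 were profiled by ChIP-seq in sorted cortical cells (15 ChIP and 8 input libraries). Per the study's methods and the labels, the authors aligned reads to mm10 with Bowtie 1.1.2, allowing up to 3 mismatches, and took MACS peaks at a p of 1e-05. The MACS version and how replicates were combined are not given in the sources used here. The authors deposited 8 lists of peak positions, with a score of 0 for every peak, so no height and no depth was known. Positions were read as counted from 0 and are printed from 1. Genes came from GENCODE M21, promoters from RefSeq (GRCm38.p6). Window counts were made in Python 3.11.15 with NumPy 2.4.6 and tested on simulated peaks. No test between lists was run. Named are the 10 genes, other pathway genes with a peak in the rarer lists, neighbours at a peak, and list genes with an identical record. The genes, lists and settings were chosen with earlier results of these data known. Other settings were a window of 1 kb, any annotated or RefSeq start, a limit of 50 kb, the nearest start only, peaks of at least 300 bp, equal numbers of widest peaks, merged peaks and a reciprocal overlap of 50%.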

Additional observations from a re-analysis of the deposited data

How the results depend on the processing

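Of 118 values recomputed under other settings, 61 stayed within 1.5 times the reported value and 57 did not. The 61 include values of 0 that stayed 0, such as all distal H3K27ac values of EGFP- cells, which stricter settings could not move. Values are ordered EGFP- cells, then EGFP+ cells by stage, where not named. Merging peaks within 1 kb moved 0 of 8. With a TSS window of 1 kb, H3K27me3 was left at 4 genes in EGFP- cells and 0 at E13.5. Any annotated start, and the RefSeq start chosen after seeing the data, each gave 1 gene with H3K27ac in EGFP- cells, and any start gave 1 with H3K27me3 in early EGFP+ cells. With peaks of at least 300 bp, genes marked at the TSS were 3 at E11.5 and 5 at E15.5 for H3K27ac, and 3 in EGFP- cells and 0 at E13.5 for H3K27me3. Genes with a distal peak were then 5 at E11.5 and 5 at E15.5 for H3K27ac and 5, 0, 1 and 0 for H3K27me3, with 17, 32 and 19 H3K27ac and 13, 0, 1 and 0 H3K27me3 peaks. With equal numbers of the widest peaks (1386 for H3K27ac, 1429 for H3K27me3), genes marked at the TSS were 1, 0 and 2 for H3K27ac of EGFP+ cells, and 0 in EGFP- cells and 0 at E13.5 for H3K27me3. Genes with a distal H3K27ac peak were then 1, 1 and 1, with 1, 1 and 1 peaks, and for H3K27me3 0 in EGFP- cells and 2 at E11.5, with 0, 4 and 5 peaks up to E13.5. A distal limit of 50 kb left 41, 102 and 27 H3K27ac and 48, 6 and 11 H3K27me3 peaks. Only peaks nearest to the gene itself numbered 19, 59 and 11 for H3K27ac and 27, 3, 4 and 0 for H3K27me3, at 3, 3 and 0 genes for H3K27me3 of EGFP+ cells. A reciprocal overlap of at least 50% left 23 and 10 H3K27ac peaks kept from E11.5 to E13.5 and from E13.5 to E15.5, and 3 H3K27me3 peaks kept between the E11.5 groups. No paired analysis was possible because each group had 1 list and no result came from a test. The cause of these moves was not tested. Depth, peak height and replicate error are unknown, so no difference between lists can be set against its error.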
